A study of Mus musculus with 12 samples.

Results

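The genes described here are 10 members of the Notch pathway, namely the receptors Notch1, Notch2 and Notch3, the ligands Jag1, Jag2, Dll1 and Dll4, and the transcriptional targets Hes1, Hey1 and Heyl. They were chosen by symbol, because the study names Notch signalling among the pathways modulated in its model, and all 10 were present among the 28244 genes listed. The libraries came from pelleted cartilage progenitors of C57/BL6 mouse pups, isolated from the heads and condyles of femurs and tibiae at an age of 5 or 6 days. The pellets spent 7 days in chondrogenic medium and were then moved to osteogenic medium, and libraries were made at day 7 (D7, still without osteogenic medium), day 8 (D8, after 1 day), day 10 (D10, after 3 days) and day 28 (D28, after 21 days), with 3 replicates per time point. No gene was altered and no group was kept in chondrogenic medium, so that time in culture and the change of medium cannot be told apart. The sources do not say whether replicates were separate preparations of cells, so the p-values measure the spread between these libraries, which may be technical.

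Notch receptors are single-pass proteins that are cut when a ligand of the Jagged or Delta-like family on a neighbouring cell binds them. The released intracellular domain enters the nucleus, joins the DNA-binding protein RBPJ and switches on genes such as Hes1, Hey1 and Heyl, which encode basic helix-loop-helix repressors. In the skeleton the pathway is known for holding back the maturation of mesenchymal progenitors, for regulating chondrocyte hypertrophy and for acting in the vessels that enter growing bone.

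All values are the deposited log2 of an equalized read count plus 1, so that a difference of 1 is a doubling on that scale. Because the libraries were equalized, the depth of each was read only from its lowest levels. Relative depth lay between 0.730 and 1.05 at D10 and between 1.20 and 1.31 at D28, and a value resting on 3 reads stood at 2.87 or below. Time points were compared with limma over 17674 genes, and a gene was called when it differed by at least 1 on the log2 scale with a Benjamini-Hochberg adjusted p under 0.05. All 10 genes passed the filter on low values. The lists of markers of chondrocytes (Sox9, Col2a1, Acan) and of osteoblasts (Runx2, Alpl, Ibsp) were both expressed at every time point, with no chondrocyte marker and no osteoblast marker at 3 reads or fewer throughout a time point. Since the pellets are bulk samples, fewer cells of a type and less RNA per cell cannot be told apart in any result below.

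The 10 genes did not move as a block. Between D7 and D10 the ligands Dll1 and Jag1 and the target Hey1 rose, while the receptors Notch1 and Notch3 and the target Heyl fell. Between D10 and D28 Dll1, Jag1, Dll4 and Hes1 fell and Notch3 rose. Notch2, the most abundant receptor, drifted down over the whole course without a step large enough to be called.

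**Figure D1:**
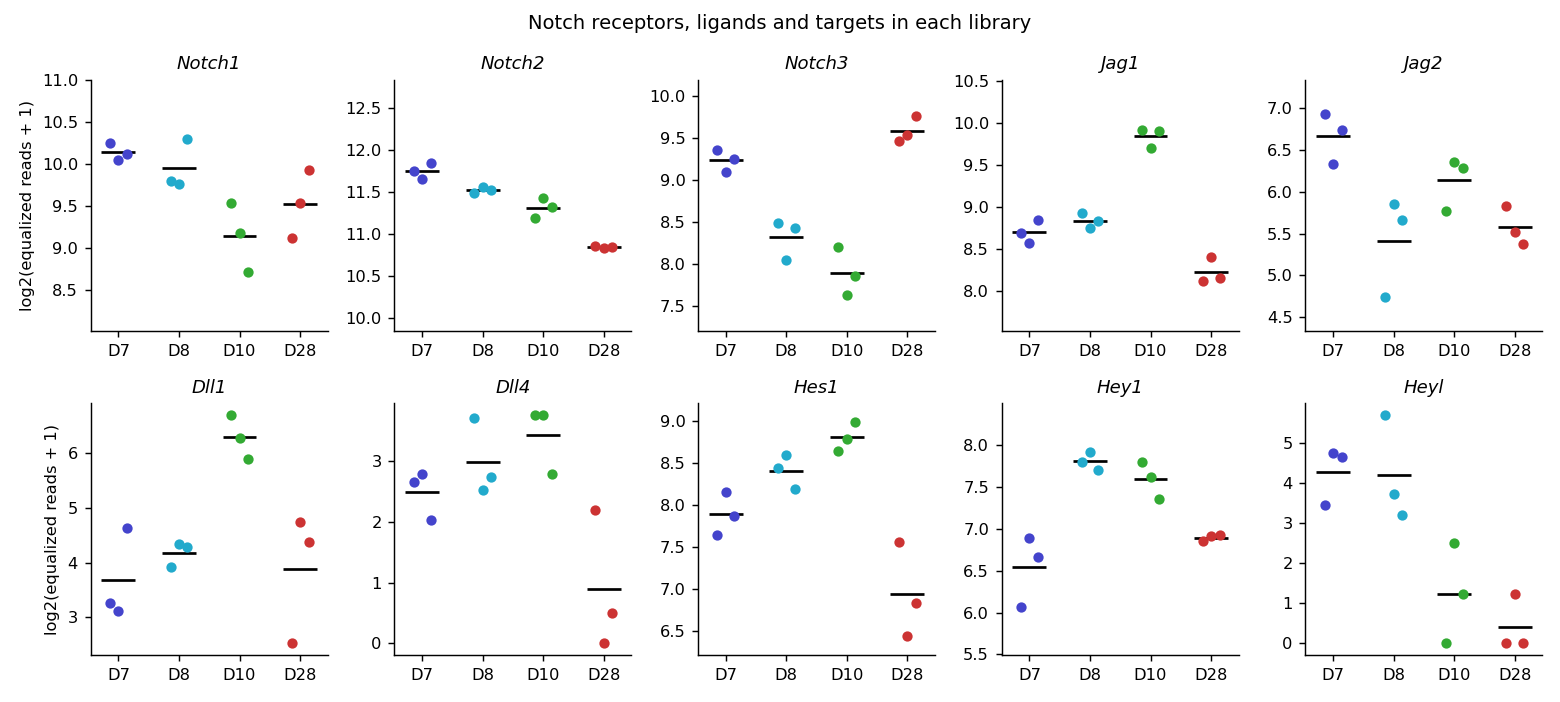
Deposited log2(equalized reads + 1) of the 10 genes in each library (points) at D7, D8, D10 and D28, with the mean of the 3 replicates as a black line. Each panel has its own axis. Jag1 and Dll1 peaked at D10, Notch3 was lowest there, and Heyl was at 2.50 or below in the D10 and D28 libraries.

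The first day in osteogenic medium called 2 of the 10 genes. Hey1 was higher at D8 than at D7, against 3.23% of all genes tested that were called higher, and Jag2 was lower, against 3.81% called lower. The following step, D10 against D8, called Dll1 and Jag1 higher, where 4.08% of all genes were called higher, and Heyl lower, where 5.58% were called lower. Over both steps together, D10 against D7, 3 of the 10 genes were higher (Dll1, Jag1, Hey1), with 8.5% of all genes called higher, and 3 were lower (Notch1, Notch3, Heyl), with 10.4% called lower.

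The long step, D28 against D10, called Notch3 higher and Dll1, Dll4, Jag1 and Hes1 lower. Of all genes tested, 13.8% were called higher and 13.7% lower in that comparison. D28 against D8 called Notch3 higher and Dll4, Hes1 and Heyl lower, with 10% of all genes higher and 9.7% lower. D28 against D7 called Dll4, Jag2 and Heyl lower and none higher, with 8.66% of all genes called lower and 8.63% higher. The median difference of the 10 genes was 0.24 for D10 against D7, where that of all genes was 0.05, and -0.77 for D28 against D10, where that of all genes was -0.10. The comparisons share libraries with each other, so their counts are not independent.

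**Figure D2:**
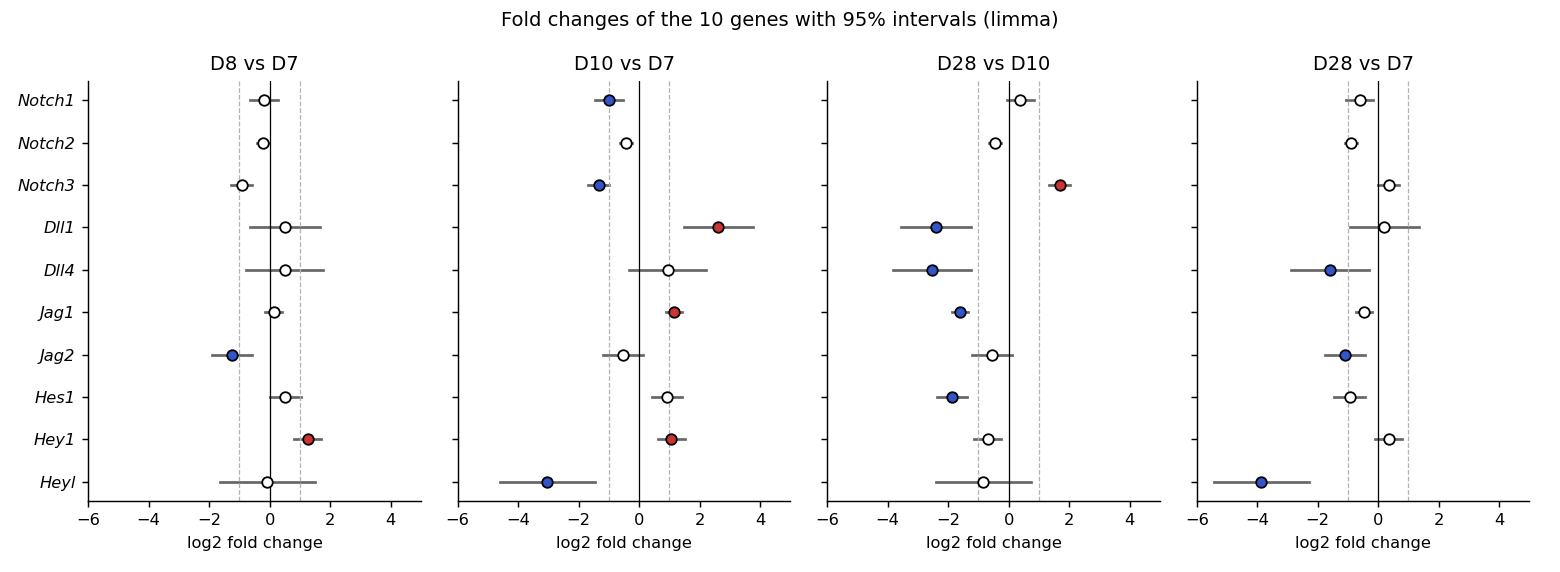
Log2 fold changes from limma (points) with 95% intervals (lines) for the 10 genes in 4 comparisons. Red points were called higher, blue points lower and white points were not called, and dashed lines mark a log2 fold change of 1 in either direction. The intervals of Heyl, Dll4 and Dll1, which rest on few reads, are the widest.

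Among the receptors, Notch2 had the highest level per kilobase of exon at every time point. Notch2 lies at chr3:98013527-98150361 on the plus strand (GRCm38, GENCODE M21). Its log2 values were 11.75, 11.65 and 11.85 at D7, 11.49, 11.56 and 11.53 at D8, 11.19, 11.43 and 11.32 at D10, and 10.86, 10.83 and 10.85 at D28. The 4 groups did not overlap and stood in the order of time. Notch2 at D28 differed from D7 by -0.90 (SE 0.09, adjusted p = 1.9e-06), just short of the fold threshold. The neighbouring steps were smaller, and of these only D28 against D10 passed the adjusted p, with a difference of -0.46 (SE 0.09, adjusted p = 0.00056).

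Notch1, at chr2:26457903-26516663 on the minus strand, had its highest mean at D7 and its lowest at D10. The values of Notch1 were 10.25, 10.05 and 10.12 at D7, 9.80, 9.76 and 10.30 at D8, 9.53, 9.18 and 8.71 at D10, and 9.12, 9.53 and 9.93 at D28. The D10 libraries lay below all of those of D7 and D8, while D28 overlapped with both D8 and D10. The fall from D7 to D10 was 1.00 on the log2 scale (SE 0.21, adjusted p = 0.0015), right at the fold threshold. Without replicate 3 of D10 it was -0.79, and without replicate 1 of D7 it was -0.94, so that neither fit called it. Exons of the lowly expressed 0610009E02Rik (log2 values of 3.43 to 5.05) overlap those of Notch1 on the opposite strand, and the sources used here do not say whether counting used strand. Exons of Gm13568 overlap Notch1 on the opposite strand too. Those of Gm42820 overlap Notch2 on the same strand, and those of Gm17276 and Gm14207 overlap Notch3 and Dll4 on the opposite strand. None of these Gm genes was listed, so their reads could not be seen.

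Notch3 is a receptor known best from mural cells, the pericytes and smooth muscle cells around vessels. Its values were 9.36, 9.10 and 9.25 at D7, 8.48, 8.04 and 8.43 at D8, 8.20, 7.63 and 7.85 at D10, and 9.46, 9.53 and 9.76 at D28. The D7 and D28 libraries were all above those of D8 and D10. Notch3 differed from D7 by -0.92 after 1 day in osteogenic medium (SE 0.16, adjusted p = 0.00096), which did not reach the fold threshold, and by D10 it had fallen by 1.35 (SE 0.16, adjusted p = 9.6e-06). At D28 it was 3.22-fold higher than at D10, a log2 difference of 1.69 (SE 0.16, adjusted p = 4.8e-07). Its level at D28 also lay above D7 in each library, but that difference of 0.34 had an interval from -0.0044 to 0.69 and did not pass (adjusted p = 0.12).

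Notch3 lies at chr17:32120820-32166852 on the minus strand, and the 250 bases before its RefSeq start site (GRCm38.p6) are shown because no other receptor both fell and rose by a call. The stretch covers chr17:32166891-32167140 and is written 5′ to 3′ on the strand of the gene, with matches to the N-box CACNAG, letters that Hes repressors bind, in capitals.
Notch3: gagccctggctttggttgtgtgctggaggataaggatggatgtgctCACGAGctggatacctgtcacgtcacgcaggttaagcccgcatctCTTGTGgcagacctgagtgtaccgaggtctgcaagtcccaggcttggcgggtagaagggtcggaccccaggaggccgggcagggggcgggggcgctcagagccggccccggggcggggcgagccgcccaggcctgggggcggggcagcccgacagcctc
The matches begin 204 and 159 bases before the start, the second of them on the other strand. Searched on both strands, CACNAG occurred in 36.7% of 32851 such windows of mouse genes, and in 4 of the 8 windows available for the 10 genes, those of Notch1, Notch2, Notch3 and Dll4. GTGGGAA, the core letters that RBPJ binds, occurred in 5.42% of all windows and in 0 of the 8, and CACGTG, the E-box letters that Hey proteins bind, in 6.02% and in 0 of the 8. The 8 windows cover 7 of the genes, since Dll1 has 2 starts and none was at hand for Hes1, Hey1 and Heyl. The windows of the 7 genes were 56.0% to 87.2% G and C, against a median of 52.4% over all windows.

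Seen as levels per kilobase of exon, the sum of the 4 receptors, Notch4 included, stood at 497 ± 29.9 (SD, n = 3) equalized reads per kilobase for D7, 409 ± 14.5 for D8, 334 ± 20.4 for D10 and 325 ± 24.0 for D28. The make-up of that sum differed between D10 and D28 even though the sums overlapped. Notch2 made up 70.7% ± 3.10 of the sum at D10 and 52.8% ± 3.84 at D28. Notch3 made up 15.0% ± 0.76 at D7, 8.95% ± 2.24 at D10 and 29.2% ± 1.17 at D28, and its lowest share at D28, 28.5%, was above its highest at the other time points, 15.9%. Notch1 stayed between 9.09% and 20.7% in all 12 libraries. With the longest transcript in place of all exons as the length, the share of Notch3 was 8.21% at D10 and 26.7% at D28. The share of Notch1 then ran from 12.6% to 27.5% over the 12 libraries.

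**Figure D3:**
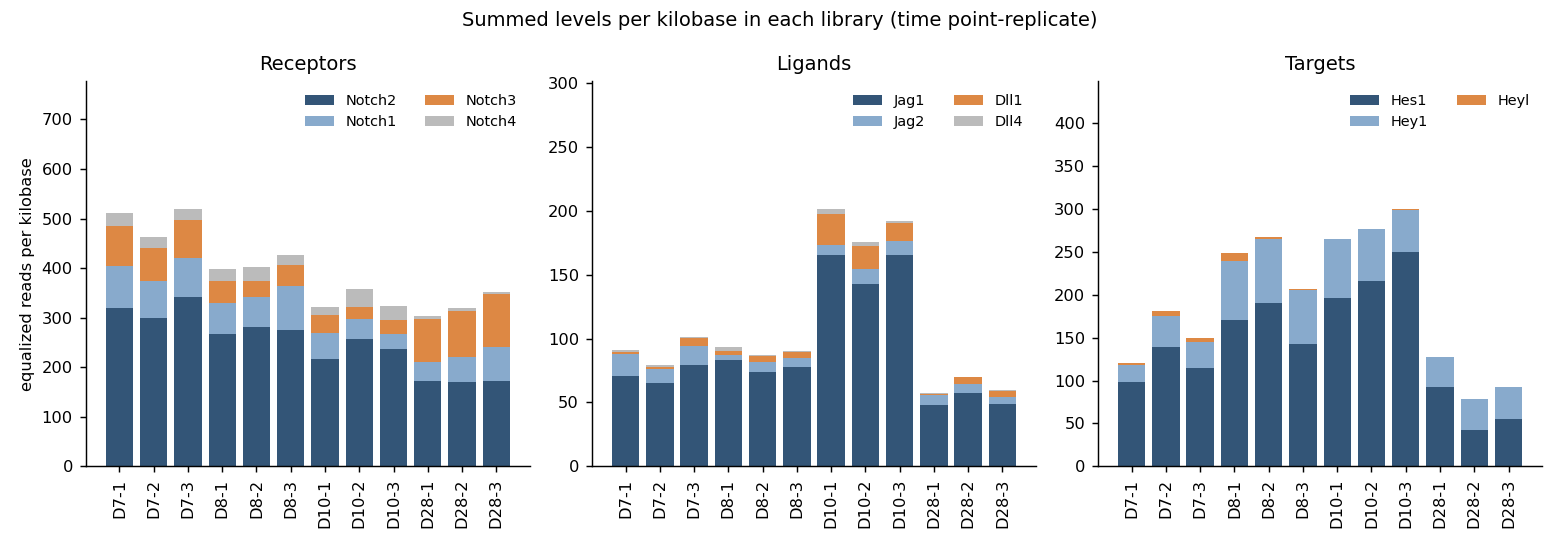
Equalized reads per kilobase of exon in each of the 12 libraries, stacked by gene, for the 4 receptors, the 4 ligands and the 3 targets. Bars are labelled by time point and replicate and start at 0. The ligand sums were highest in the D10 libraries, the target sums were higher at D8 and D10 than at D7 and D28, and Notch3 filled a larger part of the receptor sum at D28.

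Of the ligands, Jag1 was the most abundant per kilobase in every library and made up 79.1% ± 2.17 of the ligand sum at D7, with 86.3% ± 2.58 for D8, 83.3% ± 2.58 for D10 and 82.3% ± 0.22 for D28. Jag1 lies at chr2:137081456-137116644 on the minus strand. Its log2 values were 8.69, 8.57 and 8.85 at D7, 8.93, 8.75 and 8.83 at D8, 9.92, 9.70 and 9.91 at D10, and 8.12, 8.40 and 8.15 at D28. The D10 libraries were above all others and the D28 libraries below all others. The rise from D7 to D10 was 2.21-fold, a log2 difference of 1.14 (SE 0.13, adjusted p = 3.5e-06), and nearly all of it came after D8. Jag1 at D28 was 3.08-fold lower than at D10, with a log2 difference of -1.62 (SE 0.13, adjusted p = 4.5e-08), and also below D7 by -0.48 (SE 0.13, adjusted p = 0.0073), under the fold threshold. The step from D8 to D10 was 1.01, so close to the threshold that median-of-ratios scaling (0.99) and the omission of replicate 2 of D8 (0.97), of replicate 1 of D10 (0.98) or of replicate 3 of D10 (0.98) each ended the call.

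Dll1, a Delta-like ligand known for its role in somite formation and in progenitor maintenance, also had its highest mean at D10, at a far lower level than Jag1. The reads behind each Dll1 value were few: 8, 8 and 18 at D7, 13, 16 and 20 at D8, 60, 56 and 45 at D10, and 8, 37 and 31 at D28. The corresponding log2 values were 3.26, 3.12 and 4.64, then 3.91, 4.34 and 4.29, then 6.70, 6.27 and 5.90, and at last 2.52, 4.74 and 4.37. The 3 D10 libraries were above all others, and D7, D8 and D28 overlapped. Dll1 rose 6.13-fold from D7 to D10, a log2 difference of 2.62 (SE 0.54, adjusted p = 0.0011), and fell by 2.41 from D10 to D28 (SE 0.54, adjusted p = 0.0014). Without replicate 1 of D28, which held 8 reads, that difference was -1.73 (adjusted p = 0.0062). Divided by the relative depth of each library, the reads of Dll1 came to between 42.9 and 82.2 at D10 and between 6.11 and 30.7 at D28, so that the groups were apart on that scale too. Dll1 made up 9.88% ± 2.48 of the ligand sum at D10 and 3.38% ± 1.94 at D7.

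Dll1 lies at chr17:15367354-15376872 on the minus strand, where exons of A930024N18Rik overlap it on the opposite strand. That transcript held 0 or 1 read in each library except replicate 2 of D28, which held 9. The stretches before the starts of Dll1 (chr17:15376933-15377182) and Jag1 (chr2:137116645-137116770, shortened so that it ends before the annotated transcript) are shown because both ligands peaked at D10. They are from RefSeq (GRCm38.p6), 5′ to 3′ on the strand of the gene, and capitals mark a match to the AP-1 letters TGANTCA.
Dll1: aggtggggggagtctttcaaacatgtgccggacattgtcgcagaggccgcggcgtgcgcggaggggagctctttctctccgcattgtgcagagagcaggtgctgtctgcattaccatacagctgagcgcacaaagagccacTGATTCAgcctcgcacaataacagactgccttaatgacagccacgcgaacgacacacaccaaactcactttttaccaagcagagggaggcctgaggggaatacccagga
Jag1: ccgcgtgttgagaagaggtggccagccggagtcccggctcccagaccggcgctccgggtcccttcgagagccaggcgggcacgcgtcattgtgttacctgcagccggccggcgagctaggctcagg
The match in Dll1 begins 109 bases before the start shown, which is 1 of its 2 RefSeq starts. The window of the other (chr17:15375824-15376073) held no match to TGANTCA. By sequence, that other start was found as a start of a GENCODE transcript and the one shown was not. TGANTCA occurred in 6.75% of all windows of 250 bases, on either strand, and in 1 of the 8 windows of the 10 genes. Neither stretch held the RBPJ core, the E-box or the N-box letters given above.

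Jag2, at chr12:112907819-112929776 on the minus strand, was lower after the first day in osteogenic medium. Its values were 6.93, 6.33 and 6.74 at D7, 4.74, 5.85 and 5.66 at D8, 5.77, 6.35 and 6.28 at D10, and 5.83, 5.52 and 5.38 at D28. The D8 and D28 libraries lay below those of D7, and D10 overlapped with D7 and with D8. Jag2 fell by 1.25 from D7 to D8 (SE 0.31, adjusted p = 0.0097) and was lower at D28 than at D7 by a difference of -1.09 (SE 0.31, adjusted p = 0.012). The first of these calls rested on replicate 1 of D8, without which the difference was -0.91 (adjusted p = 0.054). The second was lost without replicate 1 of D7 (-0.96) or replicate 3 of D28 (-0.99). As a share of the ligand sum Jag2 went from 16.1% ± 2.50 at D7 to 7.02% ± 2.77 at D8 and 5.37% ± 1.40 at D10.

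Dll4, a ligand known best from the tip cells of sprouting vessels, was close to the limit of detection throughout. It lies at chr2:119325784-119335962 on the plus strand. Dll4 had 5, 6 and 2 reads at D7, 11, 4 and 6 at D8, 6, 8 and 4 at D10, and 6, 0 and 1 at D28, which gave log2 values of 2.66, 2.79 and 2.03, then 3.71, 2.52 and 2.74, then 3.76, 3.76 and 2.79, and at last 2.20, 0 and 0.50. Its fitted differences for D28 were -2.54 against D10 (adjusted p = 0.0022), -2.09 against D8 (adjusted p = 0.011) and -1.59 against D7 (adjusted p = 0.048). Without replicate 1 of D28 these differences were -3.19, -2.74 and -2.24. That replicate overlapped with D7, and the call against D7 was lost without any 1 of 10 of the libraries (adjusted p between 0.051 and 0.19). The call against D8 was lost without replicate 1 of D8 (adjusted p = 0.059) or replicate 2 of D28 (adjusted p = 0.057). With every value raised to the 3-read level, no difference of Dll4 for D28 was called, and the fitted difference from D10 was then -0.59 (adjusted p = 0.11). Divided by relative depth, replicate 1 of D28 held 4.58 reads and the D10 libraries held 3.81 to 8.71, so that these groups overlapped on that scale.

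The sum of the 4 ligands per kilobase was 90.6 ± 10.7 (SD, n = 3) for D7, 90.5 ± 2.99 for D8, 189.6 ± 12.7 for D10 and 62.4 ± 6.79 for D28. The lowest D10 library, at 175.9, was above the highest of all the others, at 100.9. Jag1 carried most of that change, since its level per kilobase was 71.5 at D7 and 158.1 at D10, while that of Dll1 was 3.17 at D7 and 18.8 at D10.

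The 3 targets followed 3 different courses. Hes1, at chr16:30064384-30067796 on the plus strand, encodes a repressor that also answers to signals other than Notch. Its values were 7.65, 8.16 and 7.87 at D7, 8.45, 8.60 and 8.19 at D8, 8.65, 8.79 and 8.99 at D10, and 7.56, 6.44 and 6.83 at D28. The groups did not overlap and stood in the order D10, D8, D7 and D28 from highest to lowest. The difference of D10 from D7 was 0.92 (SE 0.24, adjusted p = 0.0055), under the fold threshold. From D10 to D28 Hes1 fell by 1.87 (SE 0.24, adjusted p = 7.8e-06), which is a 3.64-fold lower level, and D28 was below D8 by a difference of -1.47 (SE 0.24, adjusted p = 0.00013).

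Hey1, at chr3:8663359-8667256 on the minus strand, was higher after the first day in osteogenic medium. Its values were 6.07, 6.89 and 6.66 at D7, 7.80, 7.92 and 7.70 at D8, 7.80, 7.62 and 7.36 at D10, and 6.85, 6.91 and 6.92 at D28. The D8 and D10 libraries were above all of those of D7 and D28. Hey1 rose 2.41-fold from D7 to D8, a log2 difference of 1.27 (SE 0.21, adjusted p = 0.00057), and D10 did not differ from D8 beyond the spread (adjusted p = 0.49, interval -0.66 to 0.23). D28 was lower than D8 by a difference of -0.91 (SE 0.21, adjusted p = 0.0025), which is under the fold threshold, and it overlapped with D7. The call of Hey1 at D10 against D7, at 1.05 (SE 0.21, adjusted p = 0.00085), was lost under median-of-ratios scaling (0.98) and without replicate 1 of D7 (0.82) or replicate 1 of D10 (0.95).

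Heyl, at chr4:123233556-123249875 on the plus strand, encodes the third Hey family repressor and is known as a target of Notch3 in smooth muscle. Heyl had 9, 28 and 18 reads at D7, 47, 10 and 9 at D8, 0, 3 and 1 at D10, and 0, 2 and 0 at D28. Its log2 values were 3.45, 4.75 and 4.64 at D7, 5.69, 3.71 and 3.20 at D8, 0, 2.50 and 1.22 at D10, and 0, 1.22 and 0 at D28. All D10 and D28 libraries held at most 3 reads, and all D7 and D8 libraries held at least 9. Heyl was at least 2.65-fold lower at D10 and at D28 than at D7, and at least 2.50-fold lower than at D8, computed with every value under the 3-read level raised to it. The bound against D8 rested on the 47 reads of replicate 1 of D8, without which it was 1.49-fold, and that against D7 ran from 2.25-fold to 3.53-fold when 1 library was left out. It was called in all 4 of these comparisons (adjusted p = 0.0037 for D10 against D7 and 0.00066 for D28 against D7), but not when low values were raised to the 3-read level (adjusted p between 0.092 and 0.13). D10 against D8 was also not called when only those 2 time points were fitted (adjusted p = 0.056). While Notch3 rose between D10 and D28, Heyl stayed at or under 3 reads.

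The sum of Hes1, Hey1 and Heyl per kilobase was 150.2 ± 30.1 (SD, n = 3) for D7, 241.0 ± 30.6 for D8, 280.5 ± 17.6 for D10 and 99.5 ± 25.1 for D28. Its lowest value over D8 and D10, 207.3, was above its highest over D7 and D28, 180.7. Hes1 made up 78.4% ± 2.77 of the sum at D7 and 62.0% ± 9.75 at D28, and Hey1 19.1% ± 1.97 at D7 and 37.9% ± 9.61 at D28. The ranges of the Hes1 share at these 2 time points did not overlap, with 72.6% as its highest at D28 and 76.4% as its lowest at D7. At D8 the Hes1 share was 69.6% ± 1.51, within its range at D28, and at D10 it was 78.5% ± 4.50.

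The 10 genes were ranked by their level per kilobase at each time point. Notch2 was first and Hes1 second at D7, D8 and D10, and at D28 Notch3 took the second place and Hes1 the third. At D10 the mean of Notch2 was 236.4 and that of Hes1 was 220.8, and with the longest transcript as the length Hes1 came first. Jag1 moved from the fifth place at D7, at 71.5, to the third at D10, at 158.1. Dll4 was last at D7 and D8 and Heyl at D10 and D28.

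Beyond these genes, the pathway was followed through a list of 73 further genes, of which 67 could be tested. Of the 67, 2 were called higher and 1 lower at D8 against D7, 1 higher and 6 lower at D10 against D8, and 5 higher and 9 lower at D10 against D7. At D28, 8 were higher and 6 lower than at D10, 6 higher and 5 lower than at D8, and 4 higher and 6 lower than at D7. In that order the calls came to 4.48%, 10.4%, 20.9%, 20.9%, 16.4% and 14.9% of the 67, while 7.04%, 9.66%, 18.9%, 27.5%, 19.7% and 17.3% of all genes tested were called. Their median difference was -0.04 for D10 against D7 and 0.12 for D28 against D10, where those of all genes were 0.05 and -0.10.

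**Figure D4:**
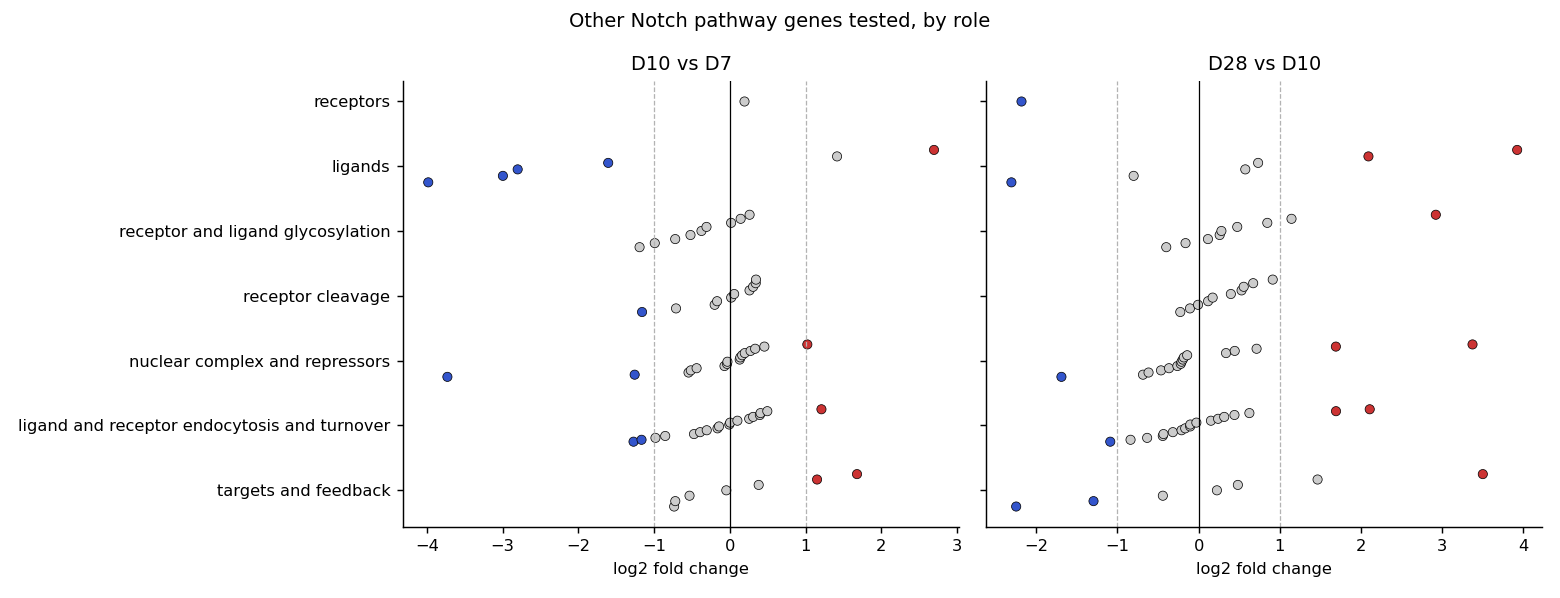
Log2 fold changes of the other Notch pathway genes that were tested, 1 point per gene, by role, for D10 against D7 (left) and D28 against D10 (right). Red points were called higher, blue points lower and grey points were not called. The non-canonical ligands spread widely on both sides of 0, and the cleavage and nuclear genes lay mostly near 0.

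The fourth receptor, Notch4, known mainly from endothelial cells, fell late. Notch4 had log2 values of 7.65, 7.49 and 7.50 at D7, 7.69, 7.88 and 7.35 at D8, 7.12, 8.22 and 7.86 at D10, and 5.73, 5.91 and 4.99 at D28. The D28 libraries were below all others, by a difference of -2.19 from D10 (SE 0.28, adjusted p = 9.1e-06) and of -2.00 from D7 (SE 0.28, adjusted p = 4.3e-05). Its share of the receptor sum was 8.17% ± 2.56 at D10 and 1.84% ± 0.65 at D28. So Notch4 and Notch3 went in opposite directions between D10 and D28.

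The non-canonical ligands are secreted or membrane proteins that bind Notch without the domain of the Delta and Jagged family. In absolute size, Mfap2 among them had the largest called difference of the other pathway genes. Rbpjl (3.73) and Id4 (3.50), which have other roles, exceeded the rest of these ligands. Of the 6 ligands tested, 1 was higher and 4 were lower at D10 against D7. Of all genes, 8.5% were called higher and 10.4% lower there. Mfap2, a microfibril protein, fell by 3.98 from D7 to D10 (SE 0.30, adjusted p = 8e-08) and was 3.93 higher at D28 than at D10. Dlk1, a membrane protein of preadipocytes and progenitors that lacks the receptor-activating domain, fell by 3.00 from D7 to D10 (SE 0.21, adjusted p = 4.3e-08) and was 2.09 higher at D28 than at D10. Its relative Dlk2 fell by 2.80 from D7 to D10 (SE 0.50, adjusted p = 0.00035) and Mfap5 by 1.61 (SE 0.28, adjusted p = 0.00025), and neither differed by a call between D10 and D28. The D10 values of Dlk2 rested on 3 to 8 reads. Ccn3, a matrix protein of the CCN family, went the other way, with a rise of 2.70 from D7 to D10 (SE 0.38, adjusted p = 4.6e-05) and a fall by 2.31 from D10 to D28, which was 1.71 without replicate 2 of D28. Ccn3, Jag1 and Dll1 thus had their highest means at D10, while Mfap2, Dlk1, Dlk2 and Mfap5 had their lowest means there. Ccn3 at D10 did not pass against D8 (adjusted p = 0.17), and Mfap5 at D28 overlapped with D10.

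In the genes that add sugars to the receptors, 1 of 9 was called higher and none lower at D28 against D10, where 13.8% of all genes were higher and 13.7% lower. That gene was Lfng, the Fringe enzyme whose sugar extension makes Notch receptors more responsive to Delta-like than to Jagged ligands. Lfng was 7.59-fold higher at D28 than at D10, a log2 difference of 2.92 (SE 0.28, adjusted p = 4.6e-07), and higher than at D7 by 1.93 (SE 0.28, adjusted p = 6.2e-05). Gxylt2, a xylosyltransferase, was lower at D28 than at D7 by a difference of -1.12 (SE 0.19, adjusted p = 0.00028). The other 7 had no call in any comparison.

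Of 10 genes for receptor cleavage, Furin, which cuts the receptor on its way to the membrane, was lower at D10 than at D7 by a difference of -1.16 (SE 0.14, adjusted p = 1e-05). Psen2, a catalytic subunit of γ-secretase, was 1.02 higher at D28 than at D7 (SE 0.14, adjusted p = 2.8e-05), and the omission of replicate 1 or 2 of D7 or of replicate 2 or 3 of D28 brought it under the fold threshold (0.92 to 0.99). Aph1c, another subunit, was 1.29 higher at D28 than at D8 (SE 0.31, adjusted p = 0.0033). Adam10, Adam17, Ncstn, Aph1a, Aph1b and Psenen had no call in any of the 6 comparisons.

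Among 16 genes of the nuclear complex and its repressors, Rbpj, which encodes the DNA-binding partner of all Notch receptors, was highest at D10. Its values were 10.53, 10.54 and 10.50 at D7, 10.92, 10.55 and 10.65 at D8, 11.99, 11.34 and 11.31 at D10, and 9.86, 9.83 and 9.88 at D28. The D10 libraries were above and the D28 libraries below all others. The rise of Rbpj from D7 to D10 was 1.02 (SE 0.15, adjusted p = 6.2e-05), which fell under the fold threshold without replicate 1 of D10 (0.80) and under median-of-ratios scaling (0.95), and the fall from D10 to D28 was 1.69 (SE 0.15, adjusted p = 2e-07). The annotation holds 2 Rbpj pseudogenes, listed at no more than 6.00, with which reads could be shared. Kat2b, an acetyltransferase recruited by the Notch complex, ran opposite to Rbpj, with a fall by 1.26 from D7 to D10 (SE 0.14, adjusted p = 3.1e-06) and a rise of 1.69 from D10 to D28 (SE 0.14, adjusted p = 6.8e-08). The third called gene, Rbpjl, which was named after its values were seen because its highest mean was only 4.79, held at most 3 reads in every D10 library.

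**Figure D5:**
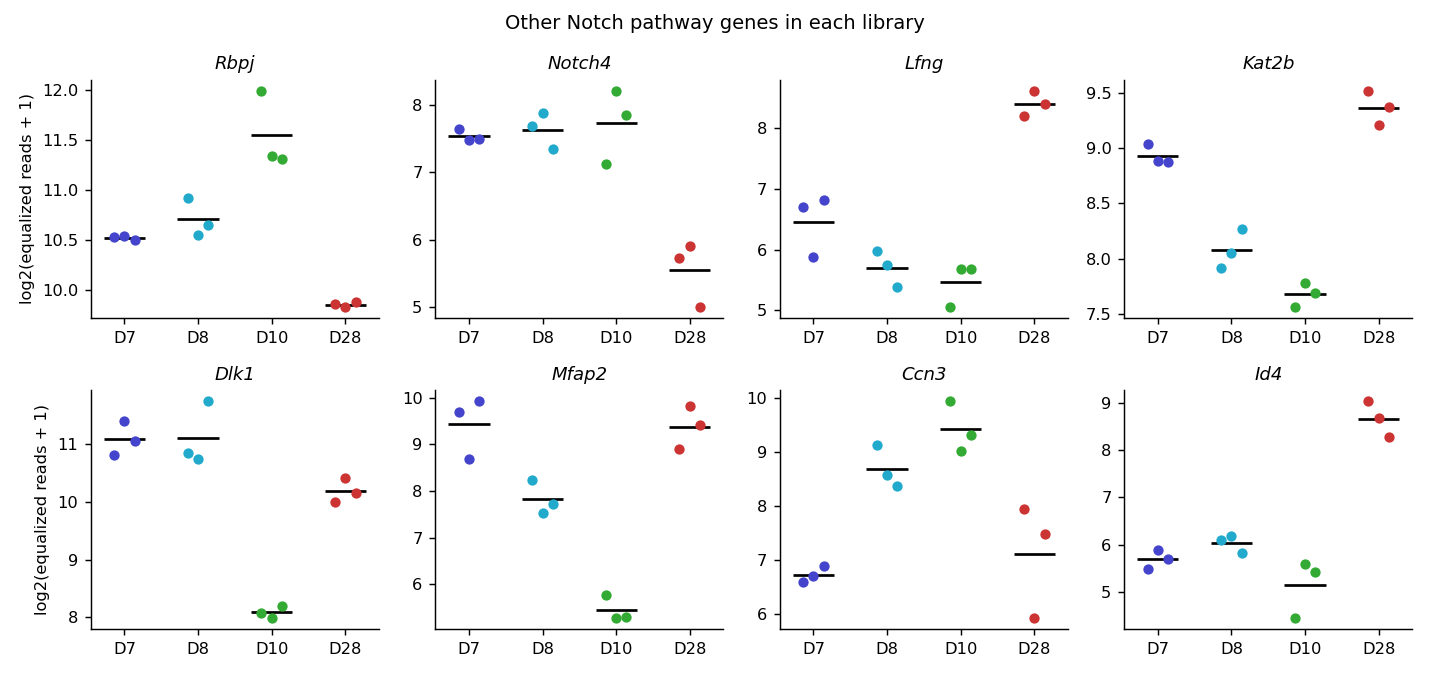
Deposited log2(equalized reads + 1) of 8 other Notch pathway genes in each library (points) at the 4 time points, with the mean of 3 replicates as a black line. Each panel has its own axis, which does not start at 0. Rbpj and Ccn3 peaked at D10, Kat2b, Dlk1 and Mfap2 were lowest there, and Lfng and Id4 were highest and Notch4 lowest at D28.

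Of 18 genes for ligand and receptor endocytosis and turnover, 1 was higher and 2 were lower at D10 against D7, beside 8.5% of all genes higher and 10.4% lower. Neurl1b, a ubiquitin ligase that acts on ligands, fell by 1.27 from D7 to D10 (SE 0.35, adjusted p = 0.0091), and the call was lost without replicate 1 of D7 (adjusted p = 0.056). Neurl2 rose by 1.21 (SE 0.35, adjusted p = 0.011), a call lost without replicate 3 of D10 (adjusted p = 0.055). Neurl1a was lower at D28 than at D7 by a difference of -2.07 (SE 0.24, adjusted p = 6.8e-06). The Deltex genes Dtx1 and Dtx3l, of a family of ubiquitin ligases, were higher at D28 than at D10 by 2.11 (SE 0.35, adjusted p = 9.8e-05) and 1.69 (SE 0.23, adjusted p = 1.6e-05). Mib1, Itch, Numb and Fbxw7 had no call in any comparison.

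Other target genes of the list were measured less fully, and 7 of 12 could be tested. Hes5, the classical Notch target of neural progenitors, held no more than 2 reads in any library and was not tested. Hey2, the remaining Hey family gene, had log2 values of 1.54, 2.30 and 0 at D7, 3.58, 3.95 and 3.79 at D8, 3.76, 0 and 1.22 at D10, and 3.90, 2.66 and 2.82 at D28. Hey2 was called higher at D8 than at D7, with a fitted difference of 2.49 (SE 0.81, adjusted p = 0.039), and the highest of its 3 D8 libraries rested on no more than 14 reads. That call was lost without replicate 1 or 3 of D7 and without any 1 of the D8 libraries (adjusted p between 0.077 and 0.14), and without replicate 3 of D7 the difference was 1.85. Bhlhe40, a repressor induced by many signals, rose by 1.15 from D7 to D10 (SE 0.21, adjusted p = 4e-04), a value of 0.87 without replicate 1 of D10, and fell by 1.30 from D10 to D28 (SE 0.21, adjusted p = 8.8e-05). Gata3 rose by 1.68 from D7 to D10 (SE 0.47, adjusted p = 0.0093) on 19 to 25 reads at D10. Id4, an inhibitor of basic helix-loop-helix factors, was 3.50 higher at D28 than at D10 (SE 0.30, adjusted p = 1.1e-07) and 2.97 higher than at D7.

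Markers of vessel cells were examined beside Notch3, Heyl, Dll4 and Notch4, since these genes are known from such cells. Of 13 endothelial markers, the summed equalized reads ran from 1323 to 1498 at D7, 889 to 1117 at D8, 765 to 826 at D10 and 452 to 577 at D28. The defining marker Cdh5 held at most 3 reads in all D10 and D28 libraries, Sox17 was at 0 in all D7, D10 and D28 libraries, and Tie1 was at 0 at D10. At D8 against D7, 4 of the 12 endothelial markers tested were higher and 1 was lower, with a median difference of 1.57, beside 3.23% of all genes higher and 3.81% lower, opposite to the falling sum. At D10 against D7, 2 were higher and 2 lower, beside 8.5% of all genes higher and 10.4% lower. Notch4 and Dll4 were called lower at D28 against each other time point. Of the 12 endothelial markers tested, none was higher at D28, while 2 were lower at D28 against D10 (13.7% of all genes called lower), 6 against D8 (9.7% of all genes) and 4 against D7 (8.66% of all genes). The shares of all genes called higher in these comparisons were 13.8%, 10% and 8.63%. The median differences of the endothelial markers were -0.58, -2.03 and -1.01. The part of endothelial cells in those results was not tested.

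Of 11 mural markers other than Notch3, 5 were lower and none higher at D10 against D7, and 7 were higher and 1 lower at D28 against D10, where Notch3 fell and rose. Of all genes tested, 8.5% were higher and 10.4% lower in the first of these, and 13.8% higher and 13.7% lower in the second. At D28 against D8, where Notch3 was also called higher, 4 mural markers were higher and 2 lower, with a median difference of 0.19, beside 10% of all genes higher and 9.7% lower. At D28 against D7, where Notch3 was not called, 5 were higher and 2 lower, with a median difference of 1.30. Of all genes, 8.63% were higher and 8.66% lower there. At D8 against D7, where Notch3 differed by -0.92, no mural marker was higher and 1 was lower, beside 3.23% and 3.81% of all genes, with a median difference of 0.40 and a higher sum at D8. The smooth muscle myosin gene Myh11 was 5.62 higher at D28 than at D10 (SE 0.48, adjusted p = 1.3e-07), with 6.22 and 5.03 as the differences without replicate 1 and without replicate 2 of D10. The pericyte gene Rgs5 was 4.82 higher (SE 0.32, adjusted p = 8.7e-09) and Acta2 was 2.88 higher (SE 0.17, adjusted p = 2.3e-09). Cspg4, which made up much of the summed level, was lower at D28 by a difference of -1.99 (SE 0.15, adjusted p = 4.3e-08). The sum of the list therefore ran from 21480 to 27821 at D7, 32427 to 38910 at D8, 19125 to 21981 at D10 and 10677 to 11514 at D28, opposite to the count of markers in the last step. Cnn1 and Lmod1 held at most 3 reads at D10, and no mural marker was at 0 throughout a time point. The part of mural cells in the course of Notch3 was not tested.

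Other cell type lists moved in the same comparisons, for which the shares over all genes were again 8.5% higher and 10.4% lower at D10 against D7, and 13.8% higher and 13.7% lower at D28 against D10. Of 10 adipocyte markers, 7 were lower and none higher at D10 against D7. All 10 were higher at D28 than at D10, and their sum went from between 2901 and 3282 at D10 to between 62592 and 86551 at D28. Of 10 skeletal muscle markers, 7 were lower and none higher at D10 against D7, and the sum fell from between 3438 and 4208 at D7 to between 408 and 544 at D10 and between 135 and 262 at D28, with Pax7 and Myf5 at 0 at D28. Of 12 chondrocyte markers, 8 were lower and none higher at D10 against D7, and 6 were higher and 1 lower at D28 against D10. Of 6 markers of hypertrophic chondrocytes, 5 were lower and none higher at D10 against D7, while the sum of the list ran from 215549 to 292919 at D7 and from 212129 to 343467 at D10. At D28, 5 of these 6 were higher and 1 was lower than at D10, while the sum ran from 74673 to 124040, so that the sum did not follow the counts. Of 12 osteoblast markers, 5 were higher and 4 lower at D10 against D7, and 6 were higher and none lower at D28 against D10, with a median difference of 0.56. Ibsp stands on this list and on that of hypertrophic chondrocytes, so the counts of these lists are not separate. Of 12 markers of macrophages and other CD45 cells, 8 were higher and 1 lower at D28 against D10, and of 8 Schwann cell and neural markers 1 was higher and 4 were lower. The sum of the Schwann cell and neural list went from between 2202 and 3759 at D10 to between 7559 and 10257 at D28, opposite to the count. Their part in the results for the Notch genes was not tested.

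For the 4 genes with the widest range of means, the genes with the most similar course over the 12 libraries were found by the root mean square difference of values centred on each gene's mean, among genes with a mean of at least 5 and a range of means of at least 1. For Hes1 these included Tmem144 (0.23) and Ppm1l (0.24), out of 4408 genes. For Dll1 they were Cnr1 (0.54), Ttll11 (0.55) and Fez1 (0.56), which were all highest at D10. For Dll4 they were AI467606 (0.50), Foxq1 (0.50) and Timp3 (0.52), and for Heyl they were Cilp (0.92), Tmem132e (0.98) and E2f7 (1.02), out of 4409 genes each. The values of Heyl and Dll4 rest on few reads. When only the 4 means were compared, Cilp was still the nearest gene to Heyl, while Cnr1 ranked 20 for Dll1 and Tmem144 ranked 13 for Hes1. The 12 libraries are 3 replicates of 4 time points, so these likenesses describe a shared course over time and share every library.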

How the data were processed

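RNA-seq of 12 libraries (4 time points with 3 replicates) was re-analysed from 1 table of gene symbols. The authors deposited log2 values: reads were trimmed with Trimmomatic 0.36, aligned with HISAT2, annotated with Cufflinks and counted with HTSeq, and the counts were equalized and transformed as log2 of the value plus 1, without pooling replicates. The submitters' notes name GRCm38, the supplementary methods name a human build, and the symbols are those of mouse. Sorted values are nearly the same in all libraries, as after quantile normalization, so totals are not kept. Low values sit on discrete levels, and read counts of up to 60 were inferred from the rank of a level within its library. Such counts carry counting error as well as the spread between libraries, and compositional shifts between time points could be partly removed by the equalization.

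Testing by limma 3.58.1 in R 4.3.3 was limited to genes that reached a value of 1 in 3 or more libraries (1 coefficient per time point, trended variance prior, 8 residual and 7.23 prior degrees of freedom, two-sided moderated p, Benjamini-Hochberg over all 17674 genes tested, of 28244 listed). The limma step was tested on simulated data. Levels per kilobase divide the unlogged value by the exon length in GENCODE M21. Plots and sequence searches used Python 3.11.15 (matplotlib 3.10.9, numpy 2.4.6, pandas 2.3.3). Of the other pathway genes, those called at least once and with a time point mean of at least 5 were named, up to 5 per role, and Notch4, Rbpj, Hes5 and Hey2 always. The 10 genes and the lists of pathway genes and markers were chosen with earlier results of these data known. Alternatives covered the filter, scaling, pseudocount, low values, thresholds, variance prior, the study's own rule, a replicate block and each library left out, and for the other pathway genes they were added after seeing the data. Columns of other samples were not present. The qPCR, imaging and implantation experiments were not analysed here. A few genes that the naming rules would have reached are not reported here.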

Additional observations from a re-analysis of the deposited data

How the results depend on the processing

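In the fits that left out 1 library each, the 10 genes gave 2 calls at D8 against D7 in every fit, 2 to 3 at D10 against D8, 4 to 7 at D10 against D7, 5 in every fit at D28 against D10, 3 to 4 at D28 against D8, and 1 to 4 at D28 against D7, the 1 without replicate 3 of D28. Of all genes, 5.72% to 7.58%, 7.85% to 10.1% and 17.2% to 19.7% were called in the D8 and D10 comparisons, in that order. For the D28 comparisons, in that order, these shares were 25.9% to 27.9%, 18% to 20.3% and 15.8% to 17.9%. At a log2 threshold of 2 the calls among the 10 genes were 0 at D8 against D7, 2 at D10 against D8, 2 at D10 against D7, 2 at D28 against D10, 2 at D28 against D8 and 1 at D28 against D7, and those among the other pathway genes, in the order D8 against D7, D10 against D8, D10 against D7, and D28 against D10, D8 and D7, were 1, 3, 5, 9, 3 and 3 of 67, beside 2.2%, 3.01%, 7.59%, 11.9%, 8.8% and 7.67% of all genes. With no fold threshold the latter were 13, 28, 32, 33, 27 and 24, beside 21%, 28.8%, 41.2%, 52.4%, 41.3% and 37.3% of all genes, and 7 of the 10 genes passed at D28 against D8 and 7 at D28 against D7. With a mean of at least 3 as the filter, or low values raised to the 3-read level, 2 of the 10 genes were called at D28 against D8 and 1 at D28 against D7. Of all genes, 16.8% and 14.6% were called with low values raised, and 20.5% and 17.7% with the mean filter. Heyl and Dll4 failed that filter and so were not tested, and with low values raised neither passed the adjusted p. Differences that changed sign when 1 library was left out were never called: Dll1 at D28 against D8 (-0.73 to 0.38) and against D7 (-0.23 to 0.88), Jag2 at D28 against D8 (-0.18 to 0.38) and Heyl at D8 against D7 (-0.83 to 0.42). The call of Dll4 at D28 against D7 was lost in 6 of the alternatives that kept all libraries, the higher threshold aside. Calls gained by leaving out 1 library were Notch1 at D10 against D8, Notch3 at D8 against D7, and Hes1 at D10 against D7 and at D28 against D7. Median-of-ratios scaling moved the median of all genes at D28 against D10 from -0.10 to 0.01. The replicate numbers did not pair the libraries (correlations of same-numbered libraries between -0.058 and 0.066, and 3 of 12 libraries nearest to their own number). With the replicate block the 10 genes gave 2, 3, 6, 5, 4 and 3 calls in the same order and the other pathway genes 3, 6, 14, 14, 11 and 10. The shares of all genes called with that block were 6.85%, 9.57%, 18.8%, 27.3%, 19.6% and 17.1%. Depth limits Dll4, Heyl and Dll1 among the 10 genes, whose values all rest on 60 reads or fewer.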
